A study of Mus musculus with 8 samples.

Results

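The glutathione peroxidase family of the mouse, Gpx1 to Gpx8, was followed in morulae whose histone chaperone CAF-1 had been knocked down. The 8 members were taken by gene symbol, out of 20660 genes that the arrays measured under a name, and each was read by 1 probe. They were chosen with their difference between the groups already known, so the members' values are a description. Whether a member passed the threshold is no test of it. Of the 8, 7 had signal on enough arrays to be among the 14601 named genes tested, and Gpx8 did not.

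The embryos were made by in vitro fertilisation and injected as zygotes. One group received control siRNA (siControl, 3 arrays). The other received siRNA against P150 (P150KD, 5 arrays), the large CAF-1 subunit, encoded by Chaf1a, which deposits histones on newly copied DNA. Both groups were grown in KSOM medium to embryonic day 3.0, and RNA of 10 morulae per array was extracted, amplified in 2 rounds and labelled with Cy3, with 5 ug of amplified RNA used per array. The labels give no mouse strain, and no uninjected embryos were analysed here. They call the arrays of a group replicates without saying whether these were separate collections, so the spread between arrays may be partly technical. An equal mass of amplified RNA was labelled, so levels are relative to the rest of each array.

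Glutathione peroxidases reduce hydrogen peroxide or lipid hydroperoxides, mostly at the expense of glutathione, which is then regenerated by glutathione reductase with NADPH. In the mouse, Gpx1 to Gpx4 carry selenocysteine in the active site, and Gpx5 to Gpx8 carry cysteine. Gpx4, which reduces lipid peroxides within membranes and thereby prevents ferroptosis, is required for early mouse development, whereas Gpx5 is best known from the epididymis and Gpx6 from the olfactory epithelium.

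The promoters of the 3 members with the clearest differences between the groups are shown first. They are the 250 bases before the RefSeq start site, from RefSeq on GRCm38.p6, written 5' to 3' on the gene's strand. Capitals mark the motif matches described after them. The Gpx5 window is chr13:21292687-21292936 on the minus strand, the Gpx6 window chr13:21311953-21312202 on the plus strand, and the Gpx4 window, 1 of 4 listed starts, chr10:80053409-80053658 on the plus strand.
Gpx5: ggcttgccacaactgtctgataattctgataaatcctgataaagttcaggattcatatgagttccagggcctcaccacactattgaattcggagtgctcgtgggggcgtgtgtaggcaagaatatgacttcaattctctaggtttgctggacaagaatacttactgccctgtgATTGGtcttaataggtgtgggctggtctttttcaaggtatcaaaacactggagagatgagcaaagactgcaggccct
Gpx6: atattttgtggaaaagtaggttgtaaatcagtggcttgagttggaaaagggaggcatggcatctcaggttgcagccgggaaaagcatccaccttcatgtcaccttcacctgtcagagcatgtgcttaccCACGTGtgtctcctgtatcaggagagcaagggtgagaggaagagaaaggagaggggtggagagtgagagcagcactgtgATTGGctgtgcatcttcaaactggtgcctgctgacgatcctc
Gpx4: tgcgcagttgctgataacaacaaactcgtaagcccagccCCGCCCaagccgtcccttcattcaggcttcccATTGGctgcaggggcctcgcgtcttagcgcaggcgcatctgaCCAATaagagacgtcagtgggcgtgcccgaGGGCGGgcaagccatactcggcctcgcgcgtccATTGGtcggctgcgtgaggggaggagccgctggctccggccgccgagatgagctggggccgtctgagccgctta

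The Gpx5 and Gpx6 windows each held 3 CpG dinucleotides, against a median of 6 over the 32851 promoter windows in the RefSeq set, and the printed Gpx4 window held 24. Their GC content was 45.2%, 50.8% and 65.2%. Motifs were searched on both strands, with a list chosen after the windows had been seen. CCAAT, the letters bound by the factor NF-Y, occurred once in the Gpx5 window, its first base at position -77 from the start, once in the Gpx6 window at -42, and 3 times in the Gpx4 window. It occurred in 33.8% of all windows. CACGTG, an E-box, was present in the Gpx6 window at -121 and in 6.02% of all windows, and GGGCGG, a GC box, occurred 2 times in the Gpx4 window and in 32.7% of all windows. No window of a member held TATAAA or the antioxidant response element cores TGACNNNGC and TGAGNNNGC, which were present in 12.4%, 10.2% and 14.4% of windows. The other Gpx4 starts had 2, 24 and 21 CpG, 1, 2 and 0 matches of CCAAT, and 0, 2 and 1 of GGGCGG. The printed Gpx4 window runs past another listed start, whose own window ends at 80053564. Its CCAAT at -74 lies beyond that start. Gpx1, Gpx2, Gpx3, Gpx7 and Gpx8 had 7, 0, 11, 16 and 10 CpG. CCAAT also occurred at -71 in Gpx2 and at -8 in Gpx3, and GGGCGG at -49 in Gpx3 and at -34 in Gpx7.

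Levels are log2 signals relative to the array's 75th percentile, so 0 is the level that 75% of probes lie below. The share of spots well above background ran from 50.1% to 55.9% over the 8 arrays, and none was saturated. The 75th percentile of the signal was 819 on siControl replicate 3, the dimmest array, and 1066 to 1304 on the others. Chaf1a, the target of the siRNA, was lower on all 5 P150KD arrays than on any siControl array, by 2.88 (log2; SE 0.48; limma adjusted p = 0.0107). All 12 morula markers, among them Pou5f1, Nanog and Cdx2, were well above background on every array; 4 of them, Sox2, Tead4, Gata3 and Krt18, fell. The groups also differed in position: 1 column of the slide held the 3 siControl arrays and P150KD replicate 1, and the other held P150KD replicates 2 to 5. The median difference over all 14601 genes was -0.24, and over 15 housekeeping genes -0.29, with 5 of these fallen, so small negative differences were common. Scaling each array to the mean level of these 15 genes raised the median of all genes to 0.41. That shift is larger than their median difference.

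Of the 7 members tested, 3 passed the adjusted threshold of 0.05, Gpx5 and Gpx6 upward and Gpx4 downward. Over all 30348 probes tested, 13.9% passed, 6.28% upward and 7.66% downward. That split turned with the scale, from 1907 probes upward and 2324 downward to 5076 and 465 with housekeeping scaling, and to 2073 and 1485 with quantile normalization. The P150KD and siControl levels did not overlap for 4 members, the same 3 and Gpx3, and for 27.1% of all tested probes (32% of named genes). The family was picked on this contrast, so nothing is read from its counts or from which members passed. Gpx6 met the signal filter through its P150KD arrays alone. In RNA of whole embryos, fewer cells expressing a gene and less RNA per cell cannot be told apart.

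**Figure D1:**
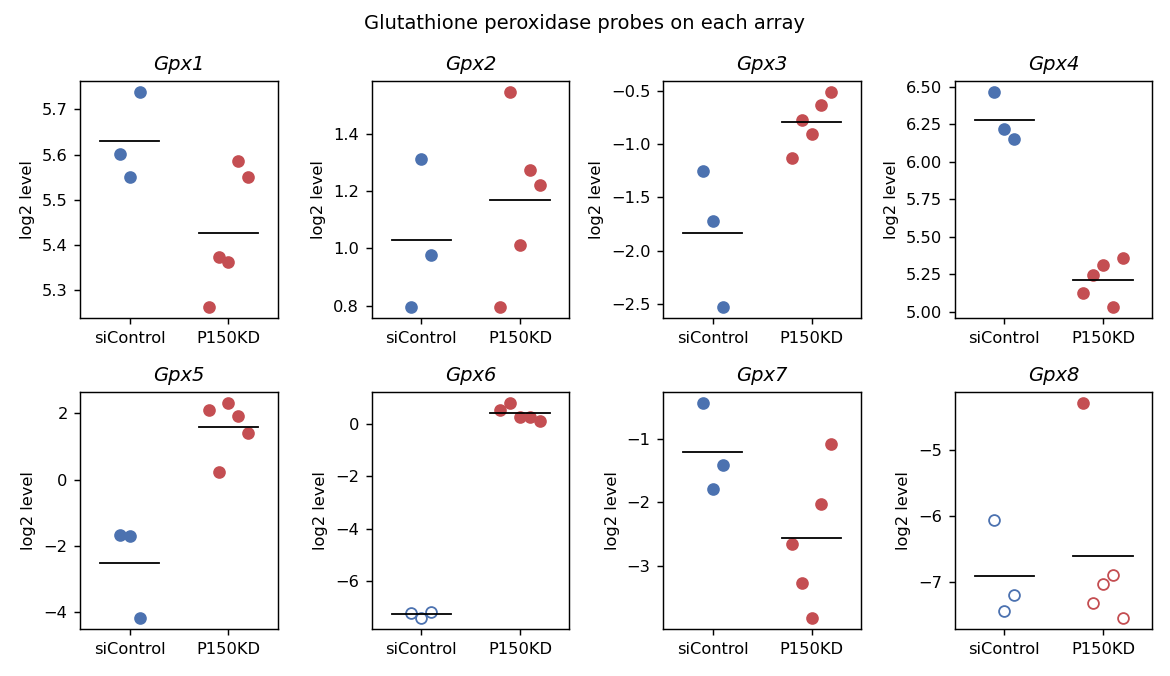
Level of each of the 8 members on each array (log2, relative to the array's 75th percentile), 1 panel per gene with its own axis, siControl (3 arrays) beside P150KD (5 arrays); horizontal lines are group means and open symbols are arrays on which the probe was not well above background. Gpx6 lay between -7.41 and -7.16 on the siControl arrays and between 0.11 and 0.81 on the P150KD arrays.

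Gpx6, a cysteine-type peroxidase, showed the widest separation in the family. The siControl arrays read -7.22, -7.41 and -7.16, none of them well above background. The P150KD arrays read 0.51, 0.81, 0.27, 0.27 and 0.11, all well above background. Every knockdown array was thus higher than every control array, and the nearest pair was 7.27 apart. The means were -7.27 ± 0.13 (SD, n = 3) and 0.40 ± 0.28 (SD, n = 5), a difference of 7.66 (SE 0.21). The control level is only a bound, and set against the dimmest detected signal of each control array, Gpx6 was at least 46.7-fold higher in P150KD. That bound holds for the background handling of the deposited signal only: with the normexp correction the measured difference was 4.26 on the log2 scale, a smaller change than the bound.

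Gpx5, the secreted cysteine-type peroxidase that protects sperm in the epididymis, lies beside Gpx6 on chromosome 13. Its levels were -1.67, -1.72 and -4.18 on the siControl arrays. On the P150KD arrays they were 2.09, 0.21, 2.32, 1.90 and 1.42. All 8 arrays were well above background, and the lowest knockdown array, replicate 2, exceeded the highest control array by 1.88. The means were -2.52 ± 1.44 (SD, n = 3) and 1.59 ± 0.84 (SD, n = 5), a difference of 4.11 (SE 0.71), or 17.3-fold. P150KD replicate 1 shared the controls' slide column, and against them its differences were 4.61 for Gpx5 and 7.78 for Gpx6.

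The P150KD arrays had an SD of 0.84 for Gpx5 and 0.28 for Gpx6, and the siControl arrays measured Gpx5 but not Gpx6. The spread of Gpx5 in the siControl group came from replicate 3, which read more than 2 log2 units below the others, and without it the Gpx5 difference was 3.28. Among the knockdown arrays, replicate 2 had the highest Gpx6 level and the lowest Gpx5 level. Over the 8 arrays the levels of Gpx5 and Gpx6 had a Pearson r of 0.89, a figure that mainly restates the difference between the groups that both share.

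The 3 nearest protein-coding genes on each side of the pair were examined in the same fit. Of these 6 genes 4 were tested, and none passed the limma adjusted threshold, with 1, Trim27, below 0.05 unadjusted. Trim27, a RING-finger ubiquitin ligase gene next to Gpx5, was 4.89 ± 0.16 (SD, n = 3) in siControl and 5.43 ± 0.19 (SD, n = 5) in P150KD, without overlap, a difference of 0.53 (SE 0.18; limma adjusted p = 0.0931). The olfactory receptor gene Olfr1368 differed by 0.22 (SE 0.23; limma adjusted p = 0.551). On the Gpx6 side, the zinc-finger genes Zscan12 and Zkscan3 differed by -0.26 (SE 0.25; limma adjusted p = 0.524) and 0.55 (SE 0.45; limma adjusted p = 0.455). Olfr263 and Olfr1367 were not well above background on any array. Within the controls' slide column, the difference of P150KD replicate 1 was 1.59 for Zkscan3 and 0.66 for Trim27.

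**Figure D2:**
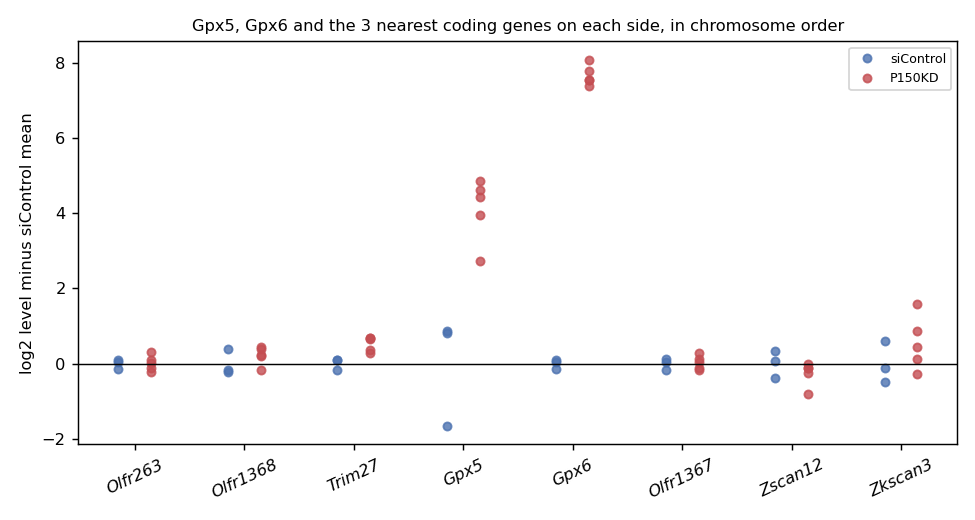
Gpx5, Gpx6 and the 3 nearest protein-coding genes on each side, in chromosome order: each point is 1 array, plotted as its log2 level minus the siControl mean of the same gene, for siControl (3 arrays) and P150KD (5 arrays). The P150KD points of Gpx5 and Gpx6 lie far above 0, and those of Trim27, whose groups do not overlap, lie 0.53 above 0 on average.

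Gpx3, the secreted plasma selenoprotein, had a higher mean in the knockdown. It read -1.25, -1.72 and -2.53 on the siControl arrays. The P150KD arrays read -1.13, -0.78, -0.91, -0.63 and -0.51. The groups did not overlap, but only 0.12 separated the highest control from the lowest knockdown array. The means were -1.83 ± 0.65 (SD, n = 3) and -0.79 ± 0.24 (SD, n = 5), a difference of 1.04 (SE 0.31), or 2.06-fold. Over the 19 alternative settings its difference ran from 0.69, without siControl replicate 3, to 1.69, with housekeeping scaling. Within the slide column of the controls the difference was 0.70.

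Gpx4, the selenoprotein that reduces lipid hydroperoxides in membranes, had a lower mean in the knockdown. The siControl arrays read 6.47, 6.22 and 6.15, and the P150KD arrays read 5.13, 5.24, 5.31, 5.03 and 5.36. All 5 knockdown arrays lay below all 3 control arrays, by 0.80 or more. The means were 6.28 ± 0.17 (SD, n = 3) and 5.21 ± 0.14 (SD, n = 5), a difference of -1.07 (SE 0.17), which is 2.09-fold lower. Scaled to the housekeeping genes, all 15 of which had a lower mean in the knockdown, the difference was -0.41. Gpx4 did not pass under that scaling. With the slide column as a block its difference was -1.15, and that fit sets P150KD replicate 1 alone against the controls. RefSeq's gene table holds the pseudogenes Gpx4-ps1 and Gpx4-ps2, and whether the Gpx4 probe also reads them was not tested.

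Gpx1, the cytosolic selenoprotein that removes hydrogen peroxide, overlapped between the groups. It read 5.60, 5.55 and 5.74 on the siControl arrays and 5.26, 5.37, 5.36, 5.59 and 5.55 on the P150KD arrays. P150KD replicates 4 and 5 lay at the level of the controls and replicates 1 to 3 lay below. The means were 5.63 ± 0.10 (SD, n = 3) and 5.43 ± 0.14 (SD, n = 5), a difference of -0.20 (SE 0.16) that did not pass. Its sign depended on the scaling, being 0.06 after quantile normalization and 0.45 after scaling to the housekeeping genes.

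Gpx2, the selenoprotein of the gut epithelium, differed least. Its levels were 0.80, 1.31 and 0.98 in siControl and 0.79, 1.55, 1.01, 1.28 and 1.22 in P150KD. The ranges overlapped, with the lowest arrays of both groups almost level. The means were 1.03 ± 0.26 (SD, n = 3) and 1.17 ± 0.28 (SD, n = 5), a difference of 0.14 (SE 0.23) that did not pass and that was -0.23 with the slide column as a block.

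Gpx7 and Gpx8 are peroxidases of the endoplasmic reticulum that pass oxidising equivalents to protein disulfide isomerase. Gpx7 read -0.43, -1.79 and -1.41 on the siControl arrays. The P150KD arrays read -2.65, -3.26, -3.82, -2.02 and -1.08. Replicate 5 lay within the controls and the other 4 knockdown arrays lay below them. The means were -1.21 ± 0.70 (SD, n = 3) and -2.56 ± 1.07 (SD, n = 5), a difference of -1.35 (SE 0.64) that did not pass. Gpx8 read -6.06, -7.44 and -7.20 in siControl and -4.27, -7.31, -7.03, -6.89 and -7.55 in P150KD. It was well above background on P150KD replicate 1 alone, so it was not tested and has no fold.

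**Figure D3:**
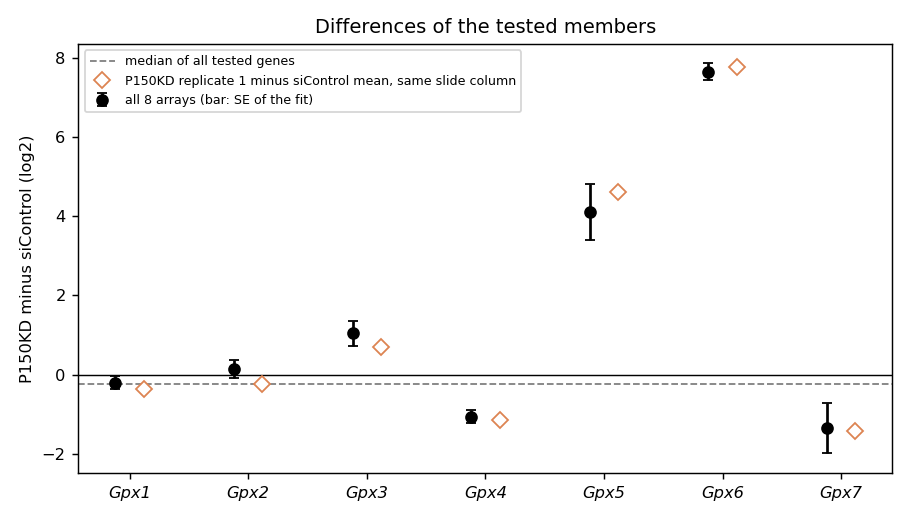
Difference P150KD minus siControl (log2) for the 7 tested members: the point is the difference of means and the bar its standard error from the fit, the open diamond is P150KD replicate 1, which shared a slide column with the controls, minus the siControl mean, and the dashed line is the median of all tested genes. Gpx5 and Gpx6 lie at 4.11 and 7.66, Gpx3 at 1.04 and Gpx4 at -1.07, while Gpx1 and Gpx2 lie near 0. Gpx6 was not well above background on any siControl array, so its point and bar rest on background readings there.

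The genes that feed or parallel the family were examined in 9 lists. Together they held 188 genes with a probe, of which 172 were tested. In limma at an adjusted p under 0.05, 9 rose, 30 fell and 133 did not pass. Over all genes 17.1% passed, 6.65% upward and 10.5% downward. At an unadjusted p under 0.05, 12.7% of all tested genes were higher and 22.9% were lower. The median difference of the lists was -0.45, against -0.24 over all genes. This balance depended on the scale: with scaling to the housekeeping genes 25 rose, 5 fell and the median was 0.21, while over all genes 18.0% rose, 2.20% fell and the median was 0.41. With quantile normalization 13 genes of the lists rose and 19 fell.

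Glutathione synthesis and turnover had 16 tested genes, of which 1 rose and 3 fell, with a median of -0.63. Chac1, which degrades glutathione, rose by 5.77 (SE 0.34; limma adjusted p = 0.000426). Gss, glutathione synthetase, fell by 1.14 (SE 0.19; limma adjusted p = 0.0112), and Lancl1, a glutathione-binding protein, fell by 1.17 (SE 0.22; limma adjusted p = 0.0163). Chac2, a relative of Chac1, also fell and was well above background on 1 of 5 P150KD arrays. The 2 glutathione-degrading relatives therefore moved in opposite directions.

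NADPH supply had 15 tested genes, of which 3 rose and 2 fell. Pgd and G6pdx, the dehydrogenases of the pentose phosphate pathway, fell by 1.37 (SE 0.17; limma adjusted p = 0.00455) and 1.17 (SE 0.27; limma adjusted p = 0.0283). Idh1, the cytosolic isocitrate dehydrogenase, rose by 1.00 (SE 0.20; limma adjusted p = 0.0188). Mthfd2 and Mthfd1l, mitochondrial folate enzymes, also rose.

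The other peroxide and superoxide enzymes, that is the peroxiredoxins, thioredoxins, catalase and superoxide dismutases, had 22 tested genes. None rose and 7 fell, with a median of -0.47, and at an unadjusted p under 0.05 1 was higher and 9 were lower. Txn2, the mitochondrial thioredoxin, fell by 0.98 (SE 0.15; limma adjusted p = 0.00785). Prdx4, the peroxiredoxin of the endoplasmic reticulum, fell by 1.11 (SE 0.21; limma adjusted p = 0.0164), and Prdx5 fell by 0.72 (SE 0.15; limma adjusted p = 0.0195). With scaling to the housekeeping genes the list median was 0.18, and 1 rose and 1 fell.

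The glutathione S-transferases, which conjugate glutathione to electrophiles, had 22 tested genes, of which 1 rose and 3 fell, with a median of -0.73. Gsta4, which acts on the lipid peroxidation product 4-hydroxynonenal, fell by 1.74 (SE 0.29; limma adjusted p = 0.0108). Gstz1 fell by 1.77 (SE 0.33; limma adjusted p = 0.0156) and Gstm2 by 2.66 (SE 0.60; limma adjusted p = 0.0282). Ptges, prostaglandin E synthase, was the gene that rose.

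Selenocysteine, which Gpx1 to Gpx4 need, is made and inserted by its own machinery. The list for it also held genes with wider roles, among them Sars, Lrp2, Lrp8, Elavl1 and Celf1. Of its 18 tested genes none rose and 3 fell, with 0 higher and 6 lower at an unadjusted p under 0.05. Pstk, the kinase that prepares the selenocysteine tRNA, fell by 1.77 (SE 0.24; limma adjusted p = 0.00564). Trit1, which modifies that tRNA, fell by 0.89 (SE 0.16; limma adjusted p = 0.0130), and Scly, which releases selenium from selenocysteine, fell by 1.64 (SE 0.39; limma adjusted p = 0.0317). Of 19 tested genes for selenoproteins outside the family, 0 rose and 3 fell, namely Selenok by 0.70, Selenon by 0.72 and Selenof by 0.95 (limma adjusted p = 0.0342, 0.0406 and 0.0484), with 1 higher and 6 lower at an unadjusted p under 0.05. No gene of that list passed after quantile normalization or scaling to the median.

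Thiol oxidation in the endoplasmic reticulum, in which Gpx7 and Gpx8 take part, had 23 tested genes, of which 0 rose and 5 fell, with 1 higher and 8 lower at an unadjusted p under 0.05. Dnajc10, a disulfide reductase, fell by 1.24 (SE 0.21; limma adjusted p = 0.0108), and Erp29 fell by 0.75 (SE 0.16; limma adjusted p = 0.0212). Prdx4, given above, P4hb, the protein disulfide isomerase, and Vkorc1 also fell.

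Lipid peroxidation and ferroptosis, the setting in which Gpx4 acts, had 29 tested genes, of which 4 rose and 4 fell. Tfrc, the transferrin receptor that brings in iron, rose by 1.41 (SE 0.15; limma adjusted p = 0.00273). Alox12b, a lipoxygenase, fell by 1.19 (SE 0.17; limma adjusted p = 0.00705), and Vdac2, a mitochondrial outer-membrane channel, fell by 1.09 (SE 0.16; limma adjusted p = 0.00752). Acsl4, which loads polyunsaturated fatty acids, Aloxe3 and Fdft1 also rose, and Dhodh, which protects mitochondria from lipid peroxidation, and Ncoa4, a ferritin receptor, also fell.

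NRF2, encoded by Nfe2l2, is the main activator of antioxidant genes. Nfe2l2 fell by 1.08 (SE 0.18; limma adjusted p = 0.0102) and was the 1 gene of 13 tested in its list that passed. Sqstm1, an adaptor that binds the NRF2 inhibitor Keap1, differed by -0.88 (limma adjusted p = 0.0533), and Bach1, a repressor of NRF2 targets, by -0.64 (limma adjusted p = 0.0794). The list's median was 0.31, above 0, while these 3 genes were below it. Of the 24 pathway genes named with an adjusted p under 0.05 by rank in their list, 5 kept their call under housekeeping scaling: Chac1, Idh1, Gsta4, Pstk and Tfrc. Chac2, Mthfd2, Mthfd1l, Ptges, P4hb, Vkorc1, Acsl4, Aloxe3, Fdft1, Dhodh and Ncoa4 were named after their values were seen.

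**Figure D4:**
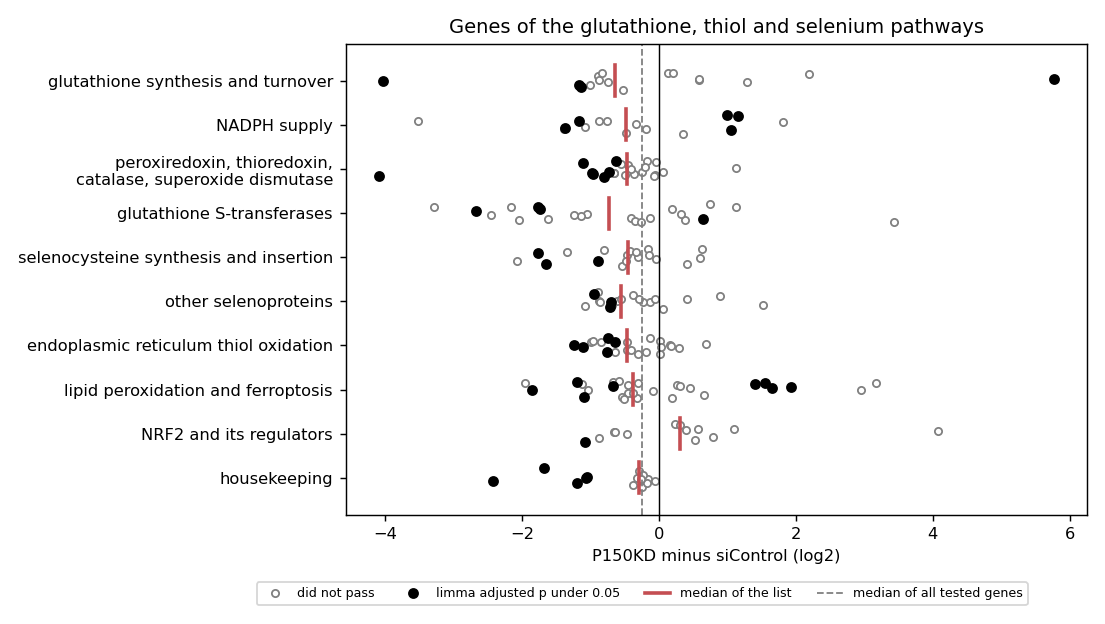
Difference P150KD minus siControl (log2) of every tested gene in the 9 pathway lists and the housekeeping list: filled points passed a limma adjusted p of 0.05, open points did not, the red bar is the list's median and the dashed line the median over all tested genes (-0.24). Chac1 lies at 5.77, the farthest to the right, and 8 of the 9 pathway medians lie left of the dashed line.

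The genes whose levels ran most like those of the members were found by Pearson correlation over the 8 arrays, which for Gpx6 and Gpx4 mostly reflects the difference between the groups. Gpx6 was followed most closely by Elovl3, a fatty acid elongase (r = 0.998), Akr1c21, a hydroxysteroid dehydrogenase (r = 0.996), and Pmaip1, the proapoptotic Noxa gene (r = 0.996). Elovl3 and Akr1c21, like Gpx6, were not well above background on any siControl array, so their r sets background readings against signal. Gpx4 was followed by Utf1, an embryonic stem cell factor (r = 0.998), Coa6, an assembly factor of cytochrome c oxidase (r = 0.997), and Fis1, a mitochondrial fission factor (r = 0.990). Gpx1 was followed by Dync1h1, a dynein heavy chain (r = 0.992), Acaca, acetyl-CoA carboxylase (r = 0.988), and Stub1, a ubiquitin ligase (r = 0.983). These are descriptions over 8 arrays of 2 groups, picked as the highest of all tested named genes.

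Markers of the other tissues in which Gpx5 and Gpx6 are known were examined beside them. Of 12 epididymis markers, 2 were well above background on all siControl arrays and 2 on all P150KD arrays. None of the 5 tested passed, in either direction, and 0 passed unadjusted. Their summed linear level, in units of the array's 75th percentile, ran from 1.32 to 2.30 on the siControl and from 1.22 to 1.90 on the P150KD arrays, and Lcn5, Crisp1 and Cst11 were below background on all 8. Of 12 olfactory epithelium markers, 6 were well above background on all siControl and 3 on all P150KD arrays, with sums of 3.80 to 4.62 and 2.29 to 6.52. Ermn rose by 0.81 (SE 0.22; limma adjusted p = 0.0486), 1 of 10 tested, and Rtp1 and Bpifb3 were below background throughout. At an unadjusted p under 0.05, 2 were higher and 1 was lower. The other higher gene, Cyp2g1, named after its values were seen, differed by 3.42 (SE 1.37; limma adjusted p = 0.140) and was well above background on 1 of 3 siControl and 4 of 5 P150KD arrays. The lower gene, Gnal, also named after its values were seen, differed by -1.57 (SE 0.58; limma adjusted p = 0.114), without overlap between the groups.

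Sperm and cumulus cells enter at fertilisation in vitro, and blood cells could come with the oocytes. Of 14 sperm and spermatid markers, 8 were tested and 0 passed, with 2 higher and 0 lower unadjusted, sums of 8.40 to 11.5 in siControl and 5.38 to 10.8 in P150KD, and Akap4, Acrv1 and Spem1 below background throughout. The 2 higher genes, named after their values were seen, were Gapdhs and Smcp. Gapdhs differed by 2.35 (SE 0.65; limma adjusted p = 0.0527), without overlap. Smcp differed by 2.54 (SE 1.06; limma adjusted p = 0.156) and was well above background on 0 of 3 siControl and 3 of 5 P150KD arrays. Of 12 cumulus and granulosa markers, 6 were tested and 0 passed, 0 of them unadjusted. Their sums were 62.7 to 69.2 and 54.8 to 73.4, and Fshr, Has2, Ptx3 and Tnfaip6 were below background throughout. Of 11 leukocyte markers, 7 were tested and 1 rose, Coro1a by 2.67 (SE 0.49; limma adjusted p = 0.0146), with 1 higher and 1 lower unadjusted, sums of 4.81 to 16.4 and 6.95 to 7.56 and with Ptprc, Lyz2, Tyrobp and Laptm5 below background throughout. Of 8 erythroid markers, 4 were tested and 1 rose, Hba-a1 by 1.24 (SE 0.31; limma adjusted p = 0.0375), with 1 higher and 1 lower unadjusted, sums of 0.319 to 0.757 and 0.278 to 0.840 and with Hbb-bs and Hbb-bt below background throughout. Most of the summed level came from Odf2 in the sperm list, Gja1 in the cumulus list and Itgam in the leukocyte list. These sums therefore say little about the other markers. What part other cells had in the members' levels was not tested.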

How the data were processed

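Levels were measured in mouse morulae on 8 single-channel arrays. Agilent Feature Extraction 10.5.1 is named in the submitters' processing notes. Per the file headers, the deposited processed signal is an intensity with background subtracted, and the flags for background, saturation and outlying spots are of other kinds. Values in the series table that the authors deposited are log2. They matched the scanner values (r = 1, median absolute difference 0.001608) after scaling by the 75th percentile and centring every probe on its median.

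Control spots were left out and spots of a probe averaged, giving 55681 probes. Log2 signals minus the array's 75th percentile were compared with limma 3.58.1 in R 4.3.3 (linear fit and eBayes without covariates; two-sided). P-values were adjusted by Benjamini-Hochberg over the 30348 probes that were well above background on 3 or more arrays. RefSeq accessions gave 27235 probes a symbol, and 1450 accessions had no match. The tested probe with the highest mean stood for its gene. The number of arrays limits the precision. A lower bound of a fold uses, for each array of a group not well above background, the higher of its lowest well-above-background signal and the probe's own signal.

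The members, the lists, the markers and the tests were chosen with earlier results of these data known. The rule named all members, Chaf1a, the 3 genes of smallest p in each pathway list, 3 neighbours on each side of Gpx5 and Gpx6, and the 3 genes most correlated with Gpx6 and with the members of highest signal, Gpx4 and Gpx1. Alternatives were normexp (offset 50, on the median spot signal, since no mean was used), quantile, median and housekeeping scaling, the series table, other filters, replicate number, slide column, trended and robust eBayes, array weights (statmod 1.5.0), means over probes and leaving out each array. All arrays had 1 slide and 1 scan date, so that block was not run. The level of 1 marker gene is not reported here. The procedure was tested on simulated data. Tables and figures used Python 3.11.15, pandas 2.3.3, numpy 2.4.6 and matplotlib 3.10.9.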

Additional observations from a re-analysis of the deposited data

How the results depend on the processing

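The differences of Gpx3, Gpx4, Gpx5, Gpx6 and Gpx7 kept their sign under every alternative that gave a value, 19 for each and 18 for Gpx6, which has none where all 8 arrays must be above background. Where the groups do not overlap, that follows from the choice of members and is no sign of stability. Those of Gpx1 and Gpx2 did so under 17 and 18 of 19. Gpx4 was -0.79 after quantile normalization and -0.41 with housekeeping scaling, and Gpx6 was 4.26 with normexp and 8.32 with housekeeping scaling. Leaving out 1 array gave -1.13 to -0.97 for Gpx4, 3.28 to 4.54 for Gpx5 and 7.56 to 7.73 for Gpx6, whose control arrays were all below background. The number of members called was 3 each time, and nothing is read from it, since the family was chosen on this contrast.

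The probes called numbered 4231, against 713 when slide column was a block. Leaving out 1 array gave 1706 to 3749, with 1706, 2256 and 2172 without siControl replicates 1, 2 and 3. The pathway genes called numbered 39, against 21 with scaling to the median, 25 without the filter on dim probes, 6 with the slide column, and 16 to 31 leaving out 1 array (16, 23 and 19 without siControl replicates 1, 2 and 3, and 25 without P150KD replicate 4). Gpx4 was not called with housekeeping scaling. Gpx3 was called under 3 of 19 alternatives: normexp, housekeeping scaling and the filter for signal on all 8 arrays. Of the pathway genes named by rank, 1 reversed, Bach1, to 0.017 with housekeeping scaling. The cause of these shifts was not tested.

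The replicate numbers were checked for pairing: same-numbered arrays had correlations of -0.01, -0.07 and -0.02 in their deviations from the group means. No pairing was visible in these values, and whether same-numbered arrays shared a collection was not tested. With the replicate block, limma called 0 probes, 0 members and 0 pathway genes, and 6371, 4 and 53 at an unadjusted p under 0.05. That fit leaves few degrees of freedom.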
